A study of Caenorhabditis elegans with 6 samples.

Results

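The genes described here are the *nlp* antimicrobial peptide cluster of *C. elegans*, namely *nlp-34*, *nlp-31*, *nlp-30*, *nlp-29*, *nlp-28* and *nlp-27*. They were chosen by their position as neighbouring *nlp* genes on cosmid B0213 and by their read counts in these same libraries, whose values were already known. They make up 6 of the 20351 genes in the deposited table. Because the difference between *elt-2* RNAi and control libraries was in view when the genes were selected, that difference is given for them as a description. No p-value is given for them, and the calls that the fit across all genes made on them are counted beside the background only, as support for nothing.

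RNA was taken from whole N2 (wild-type strain) larvae at the L1 stage, the first larval stage. In the *elt-2* RNAi group, adults were fed bacteria expressing dsRNA against *elt-2* (the gene of an intestinal GATA factor) from day 1 of adulthood for 24 h. In the control group, adults were fed bacteria carrying the empty vector over the same period. In both groups the adults were then bleached and their embryos hatched overnight in S-Basal buffer, which holds no food, so the larvae measured were the unfed progeny of the fed animals. Each group had 3 biological replicates, A, B and C. The libraries were 3SEQ libraries, made from poly-A RNA and sequenced at transcripts' 3′ ends.

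The *nlp* genes of this cluster encode short secreted peptides rich in glycine and aromatic residues, which are made mainly in the epidermis, the tissue that also secretes the cuticle. Infection by the fungus *Drechmeria coniospora* and wounding of the cuticle are known to induce several of them through a p38 MAP kinase pathway within the epidermis, and osmotic stress induces some of them by another route. A second family of epidermal antimicrobial peptides, the caenacins (*cnc* genes), is induced in part by a TGF-beta signal sent from neurons.

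The libraries held 14378960 (A), 19558355 (B) and 22124319 (C) counts in the *elt-2* RNAi group, and 13700707 (A), 19945971 (B) and 17584345 (C) counts in the control group. The 100 most abundant genes took 79.5% to 84.7% of each library. Levels are therefore given in CPM, counts relative to the library total, after edgeR's TMM scaling, which reduces the weight of such genes. With library size alone as the scaling, the median log2 fold change of the 10063 genes tested was 0.42, against 0.06 with TMM, and the fold changes of the members and the medians of the lists are given under both. The RNAi target itself, *elt-2*, had 21, 34 and 44 counts in the *elt-2* RNAi libraries, and 32, 40 and 21 counts in the control libraries. Its log2 fold change was -0.48 ± 0.46 (SE), and its Benjamini-Hochberg adjusted p was 0.660 (edgeR, quasi-likelihood test). The study also measured *elt-2* RNA by qRT-PCR, which was not analysed here. It reports that *elt-2* RNA was reduced in L1 progeny by that method, and that larvae arrested in development. In the deposited counts a decrease in *elt-2* RNA was not detectable at this depth, and the group is called by its label, the libraries labelled *elt-2* RNAi or, in short, the RNAi-labelled libraries.

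The 6 genes lie side by side on chromosome V. In the Ensembl annotation of WBcel235, the cluster runs from 3978825 to 3989770, a stretch of 10946 bases. *nlp-34* (B0213.17) stands first, at V:3978825-3979134 on the minus strand. The other 5 are on the plus strand. They are *nlp-31* (B0213.6) at V:3980055-3980622, *nlp-30* (B0213.5) at V:3981980-3982741, *nlp-29* (B0213.4) at V:3984425-3984847, *nlp-28* (B0213.3) at V:3987900-3988316 and *nlp-27* (B0213.2) at V:3989378-3989770. Each gene has 1 annotated transcript with 2 exons, and the coding lengths run from 177 bases in *nlp-34* to 225 bases in *nlp-31*. The gaps between neighbours measure 920 to 3052 bases, the widest being between *nlp-29* and *nlp-28*, and no other gene is annotated inside the cluster. The genes are similar copies of one another. The study's methods scale by uniquely mapped reads, and whether the deposited counts hold such reads alone is not given in the sources used here. The division of reads among the 6 is therefore less certain than their sum.

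Together the 6 genes were less abundant in every RNAi-labelled library than in any control library. Their summed level was 978, 1266 and 999 CPM in RNAi-labelled replicates A, B and C, against 1707, 7329 and 6100 CPM in control replicates A, B and C. The mean was 1081 ± 160 CPM in the RNAi-labelled libraries and 5045 ± 2956 CPM in the control libraries (SD, n = 3 each), which is 4.67-fold lower. As a share of all counts, with no further scaling, the cluster took 0.136%, 0.144% and 0.0964% of the RNAi-labelled libraries, against 0.205%, 0.452% and 0.540% of the control libraries, a 3.18-fold lower mean share. The control libraries were unequal on both scales, and control replicate A stood nearer to the RNAi-labelled libraries than to the other controls. In bulk RNA of whole larvae, fewer cells of a type and less RNA per cell cannot be told apart.

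**Figure D1:**
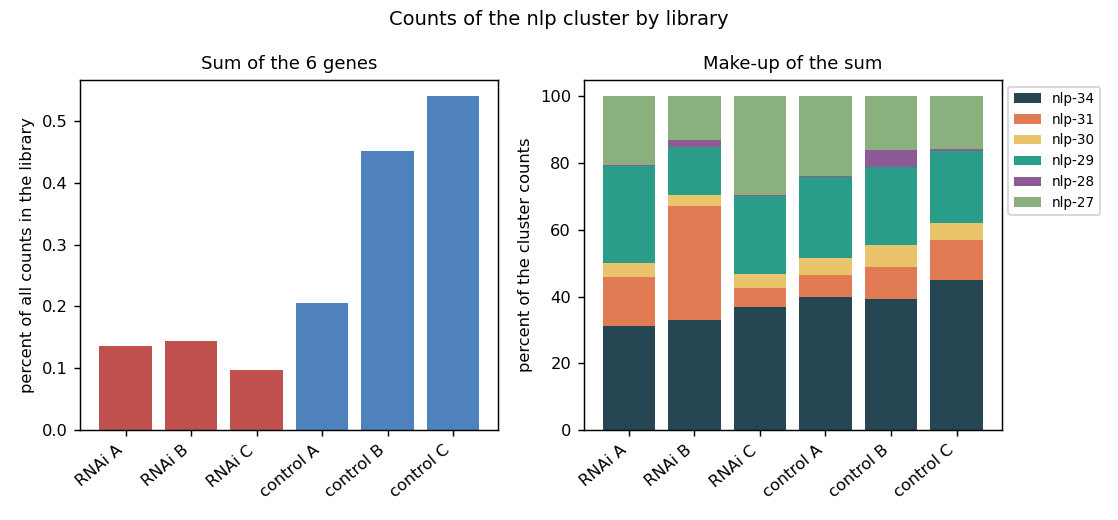
Left, summed counts of the 6 cluster genes as a percent of all counts in each library, and right, the percent of that sum taken by each gene, with RNAi-labelled replicates A, B and C before control replicates A, B and C. The sum stays between 0.0964% and 0.144% in the RNAi-labelled libraries and lies between 0.205% and 0.540% in the control libraries; *nlp-31* takes 34.2% of the sum in RNAi-labelled replicate B.

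*nlp-34*, the only member on the minus strand, had the highest mean level in both groups. It had 305, 415 and 368 CPM in RNAi-labelled replicates A, B and C, against 679, 2878 and 2748 CPM in control replicates A, B and C. The groups did not overlap, and control A was the lowest control. The means were 363 ± 55.2 CPM in the RNAi-labelled libraries and 2101 ± 1234 CPM in the control libraries (SD, n = 3 each), and the log2 fold change was -2.53 ± 0.62 (SE), or -2.003 with library size. Ranked among all genes of a library, *nlp-34* stood at places 150, 173 and 189 in the RNAi-labelled libraries, and at places 111, 92 and 77 in the control libraries.

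*nlp-29* is the member most used as a reporter of the epidermal response to infection and wounding. It had 283, 182 and 232 CPM in the RNAi-labelled libraries, against 419, 1724 and 1311 CPM in the control libraries, with no overlap. The means were 232 ± 50.5 CPM in the RNAi-labelled libraries and 1151 ± 667 CPM in the control libraries (SD, n = 3 each), and the log2 fold change was -2.31 ± 0.60 (SE), or -1.73 with library size. *nlp-27*, at the far end of the cluster, followed closely in level. It had 202, 165 and 294 CPM in the RNAi-labelled libraries, against 405, 1180 and 957 CPM in the control libraries, again with no overlap. Its log2 fold change was -1.94 ± 0.55 (SE), or -1.45 with library size, the smallest among the 4 genes whose groups did not overlap.

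*nlp-30* was the steadiest member among the RNAi-labelled libraries. It had 40.4, 42.4 and 41.5 CPM there, against 83.5, 473 and 316 CPM in the control libraries, with no overlap. The means were 41.5 ± 1.00 CPM in the RNAi-labelled libraries and 291 ± 196 CPM in the control libraries (SD, n = 3 each), and the log2 fold change was -2.81 ± 0.63 (SE), or -2.22 with library size. The evenness depended on the scaling, since the highest RNAi-labelled library exceeded the lowest 1.05-fold with TMM and 1.40-fold with library size alone.

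The groups overlapped for *nlp-31* and *nlp-28*. *nlp-31*, whose peptide has been shown to act against fungi and bacteria in vitro, had 144, 433 and 58.4 CPM in RNAi-labelled replicates A, B and C, against 116, 702 and 725 CPM in control replicates A, B and C. RNAi-labelled replicates A and B were above control A, and both groups were spread widely. The log2 fold change was -1.28 ± 0.82 (SE). It was -0.70 with library size, -2.34 without RNAi-labelled replicate B and -0.84 without RNAi-labelled replicate C.

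*nlp-28* had 3.10, 28.0 and 4.73 CPM in RNAi-labelled replicates A, B and C, against 4.74, 372 and 41.7 CPM in control replicates A, B and C. In each group the B library was the highest by far. RNAi-labelled replicates A and C and control A were close to one another, at 62, 101 and 78 counts. The log2 fold change of -3.54 ± 1.34 (SE) was the largest in size of the 6 and had the largest SE. It was -2.74 with library size, -5.14 without RNAi-labelled replicate B and -0.97 without control replicate B.

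**Figure D2:**
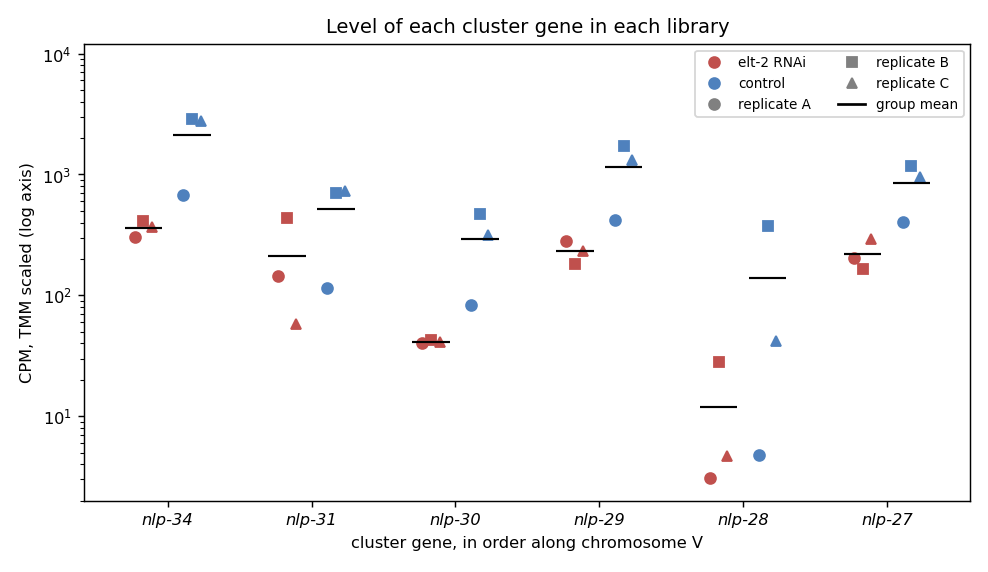
Level of each cluster gene in CPM with TMM scaling, on a log axis, with RNAi-labelled libraries (red) left of control libraries (blue), marker shapes for replicates A, B and C, and lines at the group means (n = 3 each). For *nlp-34*, *nlp-30*, *nlp-29* and *nlp-27* every red point lies below every blue point, while for *nlp-31* and *nlp-28* the groups overlap.

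Counted over the cluster, all 6 genes passed edgeR's expression filter and all 6 had a negative fitted log2 fold change, with a median of -2.42 (-1.86 with library size). The groups did not overlap for 4 of the 6, under TMM and under library size alike. With TMM, 10.9% of all genes tested were lower without overlap, and that share is not given for library size. edgeR's quasi-likelihood test at a false discovery rate of 10% called 2 of the 6 lower, *nlp-34* and *nlp-30*, and it called 2.61% of all genes tested lower. These counts rest on the contrast with which the genes were chosen. The number of members called was 5 without control replicate A, a fit that called 4.93% of all genes lower. It was 0 when any other single library was left out, in fits that called 0.744% to 1.501% of all genes lower. With all 6 libraries, it was 2 with library size (1.48% of all genes called lower) and 4 with the DESeq2 Wald test (5.15%). With every gene of at least 1 count it was 5 (4.54%).

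**Figure D3:**
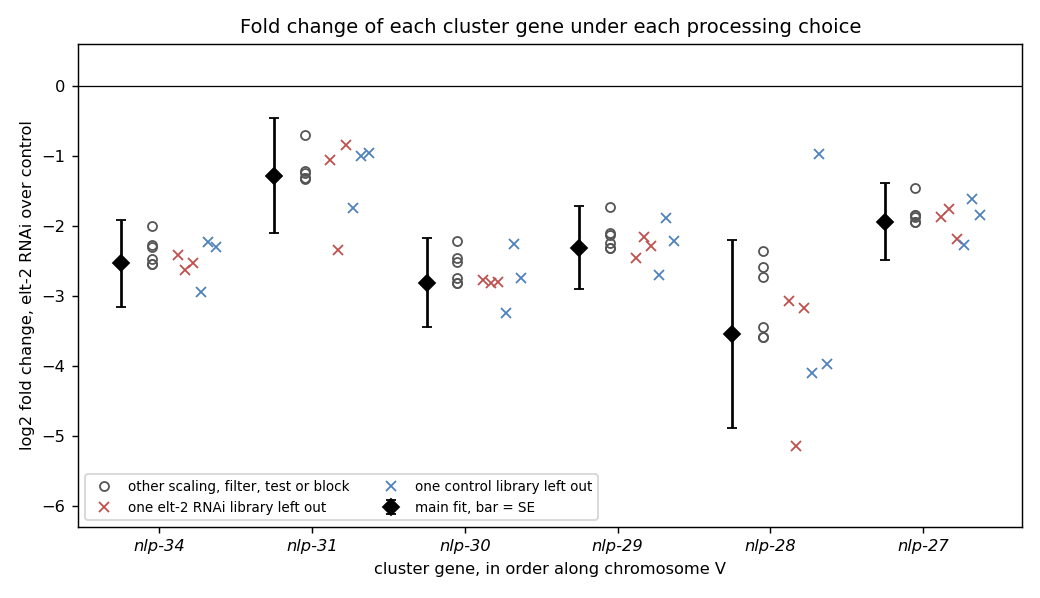
Log2 fold change of each cluster gene, RNAi-labelled over control, in the fit to all 6 libraries (diamonds, bars are SE), under other processing choices (circles), and with 1 RNAi-labelled (red crosses) or 1 control library (blue crosses) left out. All values lie below 0; with 1 library left out, those of *nlp-28* run from -5.14 to -0.97 and those of *nlp-34* from -2.95 to -2.24.

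The make-up of the cluster also differed between libraries. *nlp-34* took 31.2%, 32.8% and 36.8% of the cluster's counts in the RNAi-labelled libraries, against 39.8%, 39.3% and 45.0% in the control libraries. Its share was thus smaller in each RNAi-labelled library than in any control library. *nlp-30* likewise took 4.14%, 3.35% and 4.15% in the RNAi-labelled libraries, against 4.89%, 6.46% and 5.19% in the control libraries. *nlp-31* differed most between libraries in percentage points, with 14.7%, 34.2% and 5.85% in the RNAi-labelled libraries, against 6.80%, 9.58% and 11.9% in the control libraries. In RNAi-labelled replicate B it held 9633 counts and passed *nlp-34*, at 9251 counts, which had the most counts of the cluster in the other 5 libraries. *nlp-28* took 0.317%, 2.21% and 0.474% in the RNAi-labelled libraries, against 0.278%, 5.08% and 0.684% in the control libraries, a wider range than that of *nlp-31* as a ratio. The shares of *nlp-29* (14.4% to 28.9% in RNAi-labelled and 21.5% to 24.5% in control libraries) and *nlp-27* (13.1% to 29.5% in RNAi-labelled and 15.7% to 23.7% in control libraries) overlapped between the groups.

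Divided by exon length, the mean level in the RNAi-labelled libraries was 1375 CPM per kb for *nlp-34*, 698 for *nlp-27*, 656 for *nlp-29*, 469 for *nlp-31*, 58.1 for *nlp-30* and 35.7 for *nlp-28*. In the control libraries it was 7960 CPM per kb for *nlp-34*, 3252 for *nlp-29*, 2682 for *nlp-27*, 1141 for *nlp-31*, 416 for *nlp-28* and 408 for *nlp-30*. On this per-kb scale *nlp-27* and *nlp-29*, and *nlp-28* and *nlp-30*, change places between the groups. Across libraries, the levels of every neighbouring pair in the control order overlapped, and in the RNAi-labelled order all did except *nlp-34* above *nlp-27* and *nlp-31* above *nlp-30*. Compared within each library, again by CPM per kb, *nlp-34* was above the other 5 genes in 3 of 3 libraries of both groups. So was *nlp-31* above *nlp-28* and *nlp-30*. *nlp-27* and *nlp-29* were each above *nlp-31* in 2 of 3 RNAi-labelled and 3 of 3 control libraries. *nlp-27* was above *nlp-29* in 2 of 3 RNAi-labelled and 1 of 3 control libraries, and *nlp-28* above *nlp-30* in 1 of 3 libraries of both groups. 3SEQ counts depend little on gene length. By mean CPM alone *nlp-29* stood above *nlp-27*, and *nlp-30* above *nlp-28*, in both groups, so neither pair changed places.

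Among the genes next to the cluster, those in the deposited table were nearly silent. *str-83* and *str-82*, the nearest before *nlp-34*, were not in that table. Of the 10 nearest annotated genes, 5 on either side, 4 were in the table, and all 4 had between 0 and 6 counts in every library. These were *cyp-34A10*, a cytochrome P450 gene, the chemoreceptor-type genes *srx-62* and *srh-8*, and K09D9.9. Extending to the 5 nearest protein-coding genes on either side, a choice made after the table was seen, added *srh-7*, with 0 counts in every library, *cyp-34A8*, with 2 to 18 counts, and *cyp-34A9*. *cyp-34A9* had 15, 5 and 9 counts in the RNAi-labelled libraries, against 10, 12 and 25 counts in the control libraries. It was the only neighbour kept by the filter, and its log2 fold change was -1.19 ± 0.58 (SE), and its adjusted p was 0.386 (edgeR, quasi-likelihood test).

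The *nlp* family also has members of this peptide type outside the cluster, of which 5 (*nlp-24*, *nlp-25*, *nlp-26*, *nlp-32* and *nlp-33*) were examined. This list and those that follow were chosen with earlier results of these data known, which limits what their p-values show. All 5 passed the filter, 2 fell in edgeR's test and none rose, and the median log2 fold change was -1.49 (-0.96 with library size), against 0.06 for all genes tested. *nlp-25* had 4.10, 3.23 and 4.12 CPM in the RNAi-labelled libraries, against 14.04, 58.8 and 28.9 CPM in the control libraries. It fell by 3.15 ± 0.56 (SE) on the log2 scale, with an edgeR adjusted p of 0.0238, and was not called without RNAi-labelled replicate B. *nlp-32* had 8.16, 6.96 and 10.7 CPM in the RNAi-labelled libraries, against 21.9, 40.8 and 76.0 CPM in the control libraries. It fell by 2.42 ± 0.53 (SE) on the log2 scale, with an edgeR adjusted p of 0.0561, and was called in 2 of the 6 fits that left out 1 library, those without control A or control B. *nlp-24*, the most abundant of the 5, had 1236, 1333 and 2300 CPM in the RNAi-labelled libraries, against 2270, 8206 and 3202 CPM in the control libraries. The groups overlapped, and its log2 fold change of -1.49 ± 0.61 (SE) was not called (edgeR adjusted p = 0.297).

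Of 11 caenacin genes, 9 were in the table and 8 passed the filter. edgeR's test called 3 of these lower and 0 higher, while 6 were lower and 0 higher at an unadjusted p under 0.05. The DESeq2 Wald test called 6 lower and 0 higher. The median log2 fold change of the 8 was -2.32 (-1.77 with library size). *cnc-2*, which is induced through the TGF-beta route, had 0.851, 1.89 and 0.937 CPM in the RNAi-labelled libraries, against 2.67, 20.4 and 9.25 CPM in the control libraries. It fell by 3.12 ± 0.68 (SE) on the log2 scale (edgeR adjusted p = 0.0561). *cnc-11* fell by 3.23 ± 0.67 (SE; adjusted p = 0.0467) and *cnc-6* fell by 2.95 ± 0.66 (SE; adjusted p = 0.0607) in the same edgeR test. *cnc-8*, the most abundant, had 527, 297 and 521 CPM in the RNAi-labelled libraries, against 882, 2283 and 2246 CPM in the control libraries. Its groups did not overlap, but its log2 fold change of -2.01 ± 0.56 (SE) was not called (edgeR adjusted p = 0.123). Named after their values were seen, *cnc-3* had a fitted change of 0.35, and *cnc-10* one of -0.11 with TMM and 0.25 with library size. The number of caenacin genes called lower was 6 without control replicate A, 1 without control replicate B or RNAi-labelled replicate A, and 0 without control replicate C or RNAi-labelled replicate B or C.

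Genes known to act upstream of the cluster in the epidermis were counted in the same way. For the p38 pathway, from the receptor gene *dcar-1* and the G protein gene *gpa-12* through *tir-1*, *nsy-1*, *sek-1* and *pmk-1* to the transporter gene *snf-12*, 13 of 15 genes passed the filter. edgeR's test called 0 in either direction, as did the DESeq2 Wald test, and 1 was lower and 0 higher at an unadjusted p under 0.05. The median log2 fold change was -0.26 with TMM and 0.15 with library size. The transcription factor gene *sta-2*, named after its values were seen, had 1, 2 and 2 counts in the RNAi-labelled libraries, against 4, 19 and 0 counts in the control libraries, and was not tested. The most abundant gene of the list was *rack-1*, a ribosome-associated scaffold, with 194, 1082 and 1600 CPM in the RNAi-labelled libraries, against 503, 5027 and 2667 CPM in the control libraries. The groups overlapped, and the log2 fold change was -1.51 ± 0.88 (SE; edgeR adjusted p = 0.460).

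In the TGF-beta pathway, all 7 genes passed the filter, 0 were called by edgeR or by DESeq2, and 1 was lower and 0 higher at an unadjusted p under 0.05. The median log2 fold change was -0.25 with TMM and 0.03 with library size. Its ligand gene *dbl-1* was the most abundant, with 11.7, 16.0 and 15.5 CPM in the RNAi-labelled libraries, against 16.2, 46.7 and 37.6 CPM in the control libraries. Its groups did not overlap, and the log2 fold change was -1.22 ± 0.47 (SE; edgeR adjusted p = 0.277).

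Loss of the furrow collagens of the cuticle is known to switch on several epidermal peptide genes. All 6 furrow collagen genes (*dpy-2*, *dpy-3*, *dpy-7*, *dpy-8*, *dpy-9* and *dpy-10*) had a positive fitted log2 fold change, with a median of 0.96 (1.18 with library size). None was called by edgeR or DESeq2, and 1 was higher and 0 lower at an unadjusted p under 0.05. *dpy-3*, the most abundant, had 1719, 1162 and 1699 CPM in the RNAi-labelled libraries, against 1201, 682 and 825 CPM in the control libraries, an overlap of 1 library on each side (log2 fold change 0.76 ± 0.48 SE; edgeR adjusted p = 0.500).

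Among 8 genes of the osmotic response, 0 were called by edgeR or DESeq2, with 2 lower and 1 higher at an unadjusted p under 0.05. The median log2 fold change was -0.07 with TMM and 0.37 with library size. *osm-7*, the most abundant, had 17.3, 30.7 and 43.6 CPM in the RNAi-labelled libraries, against 46.8, 156 and 45.0 CPM in the control libraries (log2 fold change -1.44 ± 0.60 SE; edgeR adjusted p = 0.308). *hmit-1.1*, an inositol transporter gene induced by high salt and picked out after its values were seen, had 0.901, 5.75 and 1.55 CPM in the RNAi-labelled libraries, against 1.22, 32.9 and 4.31 CPM in the control libraries. As for *nlp-28*, its B library was the highest in each group. Of the 8 osmotic genes, 5 had a negative and 3 a positive fitted change, and a link to *nlp-28* was not tested.

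The larvae were measured whole, so the epidermal origin of the cluster's RNA is background rather than a measurement. The epidermis was nevertheless represented, since 12 of 14 epidermis markers passed the filter, *elt-1*, *elt-3* and *lin-26* among them, while the later-stage collagen genes *bli-1* and *col-19* were at 0 to 18 counts. The summed level of the 14 was 399 to 2637 CPM in the RNAi-labelled libraries and 289 to 754 CPM in the control libraries, and most of it came from the collagen gene *sqt-3*. *sqt-3* had 304, 366 and 2503 CPM in the RNAi-labelled libraries, against 635, 380 and 213.25 CPM in the control libraries (log2 fold change 1.37 ± 0.82 SE; edgeR adjusted p = 0.471). Of the 12 tested, 11 had a positive fitted change and 1 a negative one, with a median of 0.52 (0.77 with library size). None was called by edgeR or DESeq2, and 1 was higher and 0 lower at an unadjusted p under 0.05.

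Markers of other tissues were lower in the median. For the intestine, 11 of 12 passed the filter (*vit-2*, a yolk protein gene of adults, was at 0 or 1 counts), the median log2 fold change was -1.16 (-0.86 with library size), and the summed level was 77.9 to 376 CPM in the RNAi-labelled libraries and 495 to 1271 CPM in the control libraries. Of the 11 tested, 9, the RNAi target *elt-2* among them, had a negative fitted change and 2 a positive one. These 2, named after their values were seen, were *elt-7* (log2 fold change 0.74 ± 0.44 SE) and *ges-1* (0.15 ± 0.40 SE). edgeR's test called 3 lower and 0 higher, and the DESeq2 Wald test called 5 lower and 0 higher. At an unadjusted p under 0.05 in edgeR's test, 6 were lower and 0 higher. *cpr-6*, a cathepsin B-like protease gene, fell by 2.50 ± 0.45 (SE) on the log2 scale (edgeR adjusted p = 0.0241), and *vha-6*, a proton pump subunit gene, fell by 2.32 ± 0.46 (SE; edgeR adjusted p = 0.0378). The metallothionein gene *mtl-2* had 0, 1 and 0 counts in the RNAi-labelled libraries, against 17, 13 and 29 counts in the control libraries, and was at least 9.29-fold lower with 3 counts per RNAi-labelled library as the floor (edgeR adjusted p = 0.0114). Of the 6 fits that left out 1 library, 6 called *cpr-6* and *mtl-2* lower, and 3 called *vha-6* lower. The most abundant over both groups, the protease gene *asp-1*, had 11.6, 31.1 and 137 CPM in the RNAi-labelled libraries, against 315, 686 and 323 CPM in the control libraries (edgeR adjusted p = 0.142). The actin gene *act-5*, named after its values were seen, was above it in each RNAi-labelled library, at 24.4, 97.5 and 177 CPM.

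All 8 muscle markers passed the filter, with a median log2 fold change of -0.82 (-0.39 with library size) and a summed level of 3489 to 7568 CPM in the RNAi-labelled and 5119 to 14438 CPM in the control libraries. All 10 neuron markers passed, with a median of -0.76 (-0.35 with library size) and sums of 114 to 186 CPM in the RNAi-labelled and 195 to 294 CPM in the control libraries. Of 7 pharynx markers 6 passed (*phat-1* did not), with a median of -0.92 (-0.47 with library size) and sums of 165 to 391 CPM in the RNAi-labelled and 292 to 834 CPM in the control libraries. edgeR called 0 genes of these 3 lists, and DESeq2 called 1 neuron marker lower. At an unadjusted p under 0.05, 3 neuron markers and 1 pharynx marker were lower and 1 muscle marker was higher. The most abundant markers were *mlc-2* for muscle, at 2518, 2011 and 5980 CPM in the RNAi-labelled libraries, against 3704, 8441 and 6224 CPM in the control libraries, with *sbt-1* for neurons and *tnt-4* for the pharynx. The part of these tissue differences in the level of the cluster was not tested.

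**Figure D4:**
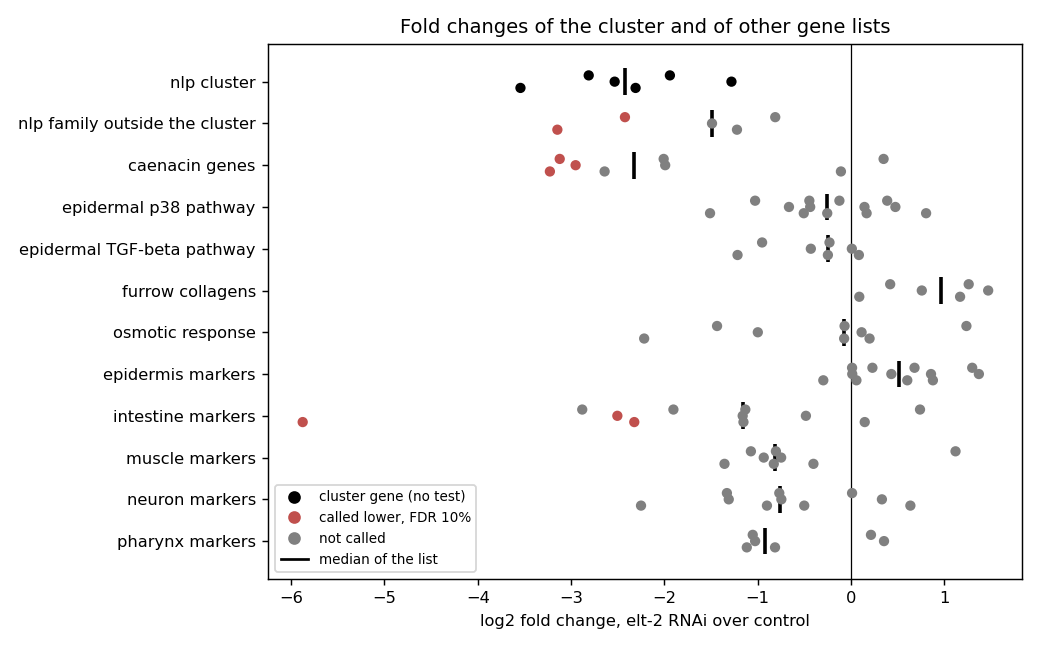
Log2 fold change, RNAi-labelled over control, of each gene that passed the filter in the cluster and in 11 other lists, with a vertical line at each list's median and red points for genes called lower at a false discovery rate of 10%. The medians are -2.42 for the cluster, -2.32 for the caenacins, -1.49 for the other *nlp* genes, -0.26 for the p38 pathway and 0.52 for the epidermis markers.

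The genes whose pattern over the 6 libraries was most like that of the cluster were sought among 2532 other genes with a mean of at least 10 CPM, by the Pearson correlation of log2(CPM + 1) with the mean over the 6 members. They were *cal-5* (r = 0.995, Spearman's rho = 0.943), *zipt-2.2* (r = 0.990, rho = 0.943), M60.4 (r = 0.989, rho = 0.943), *pyp-1* (r = 0.989, rho = 0.886) and *tald-1* (r = 0.989, rho = 0.943). These are descriptions over 6 libraries that share their depth and scaling with the cluster. *zipt-2.2*, a zinc transporter family gene, had 2.40, 7.64 and 2.44 CPM in the RNAi-labelled libraries, against 4.13, 59.8 and 30.2 CPM in the control libraries. *cal-5*, a calmodulin-related gene, spanned a narrower range, with 12.1, 13.8 and 11.7 CPM in the RNAi-labelled libraries, against 15.3, 32.9 and 24.7 CPM in the control libraries. With TMM scaling both, like the cluster, had their highest value in control B and their lowest control value in control A. That likeness follows from choosing them by this correlation. As a share of all counts the cluster was highest in control C, at 0.540% against 0.452% in control B.

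For the pair of members whose groups overlapped, the closest genes were sought one member at a time among 2537 genes, a step added after their values were seen. *nlp-28* was closest to *rps-14* (r = 0.998) and *rps-16* (r = 0.995), both genes of the small ribosomal subunit, and to Y47A7.2 (r = 0.994). *rps-16* had 1240, 2956 and 1510 CPM in the RNAi-labelled libraries, against 1740, 7615 and 3340 CPM in the control libraries, and ordered the 6 libraries as *nlp-28* did. *nlp-31* was closest to *kel-20* (r = 0.984), *did-2* (r = 0.983) and *cup-2* (r = 0.980). *kel-20* had 18.97, 71.1 and 10.3 CPM in the RNAi-labelled libraries, against 17.3, 126 and 82.3 CPM in the control libraries, so that, as for *nlp-31*, RNAi-labelled replicates A and B lay above control A.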

How the data were processed

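Whole L1 larvae gave 6 3SEQ libraries, 3 labelled *elt-2* RNAi and 3 control, grouped by their labels. The authors deposited read counts per gene for 20351 genes, as whole numbers without normalization. The submitters' processing notes name Bowtie 0.12.7. The build, annotation, counting tool and use of strand are not given in the sources used here, so genes were matched by name to RefSeq (19395 identifiers) and to the Ensembl annotation of WBcel235. No value column was left unmapped.

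Counts were tested with edgeR 4.0.16 (R 4.3.3) by the quasi-likelihood test with TMM scaling and filterByExpr. P-values of the 10063 genes that passed were adjusted by Benjamini-Hochberg, and a gene was called below 10% false discovery. The group was the only term. Each standard error is the size of the log2 fold change divided by the square root of F. CPM used the TMM library sizes. Counts of at least 62 stand behind each value of a cluster gene, and the errors of mean CPM values are the SD between replicates.

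The members and lists were chosen with earlier results of these data known. Named genes are the 6 members, *elt-2*, the genes called and the most abundant gene of each list, the 5 annotated genes on each side of the cluster, and the 5 genes with the most similar pattern; those picked out after their values were seen are marked. *cnc-5*, *cnc-9* and some neighbours were not analysed here. Alternatives were library size, DESeq2 1.42.0 size factors, its Wald test, all genes with at least 1 count, the replicate letter as a block, a false discovery rate of 5%, a difference of mean log2(CPM + 1), and leaving out each library in turn.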

Additional observations from a re-analysis of the deposited data

How the results depend on the processing

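All 6 members kept a negative log2 fold change under every alternative run. Of 72 alternative values, 53 moved by less than 1 SD of the gene's log2(CPM + 1) over the RNAi-labelled libraries and 19 by more. The control libraries were more widely spread. This measure is wide for unsteady genes and narrow for steady ones. *nlp-31*, at -1.28 and -2.34 without RNAi-labelled replicate B, was among the 53. *nlp-30*, at -2.81 and -2.74 with every gene of at least 1 count, was among the 19. The cluster median of -2.42 was -1.86 with library size, -2.19 as a difference of mean log2(CPM + 1), and between -2.83 (without control A) and -1.75 (without control B) with 1 library left out. Over all genes, 263 were called lower and 20 higher, against 149 and 52 with library size, so 92.9% and 74.1% of calls were lower. These counts were 518 and 90 with the DESeq2 Wald test, 790 and 238 with every gene of at least 1 count, 132 and 7 at a false discovery rate of 5%, and 77 to 520 lower and 3 to 63 higher with 1 library left out. Of the other *nlp* genes, 2 were called lower, against 1 with library size or at 5%, and 0 to 2 with 1 library left out. Of the caenacins, 3 were called lower, against 6 with the Wald test or every gene of at least 1 count, 1 at 5%, and 0 to 6 with 1 library left out. With every gene of at least 1 count, 1 p38 and 1 osmotic gene were called lower. The causes of these differences were not tested.

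Same-letter libraries had correlations of their deviations of 0.35 (A), 0.42 (B) and 0.01 (C), and not every library correlated best with its own letter. With the letter as a replicate block, 444 genes (4.41% of those tested) were called lower and 51 higher. In that fit 6 caenacins and 5 members were called lower, and the cluster median was -2.21.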
